A study of Drosophila melanogaster with 10 samples.

Results

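Small RNA silencing in Drosophila runs through parallel branches. In the microRNA (miRNA) branch, the nuclear Microprocessor cuts the primary transcript and Dicer-1 cuts the resulting hairpin, and the product is loaded into Argonaute 1. In the small interfering RNA (siRNA) branch, Dicer-2 cuts long double-stranded RNA (dsRNA) and hands the product to Argonaute 2, which is the route by which added dsRNA silences a gene in cultured fly cells and part of the fly's antiviral defence. The core genes of both branches are described here: AGO1, AGO2, Dcr-1, Dcr-2, r2d2, loqs, drosha and pasha. Members were the genes on this list of 8 with a probe set whose platform annotation gave their symbol alone. That held for 5 genes, Dcr-2, r2d2, loqs, drosha and pasha, with 1 probe set each, out of 6721 genes and unnamed probe sets tested. AGO1, AGO2 and Dcr-1 are not analysed here, so both Argonautes and the miRNA Dicer are missing from what follows. Dcr-2 and drosha lie on chromosome arm 2R, r2d2 and loqs on 2L, and pasha on 3R.

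The data come from Schneider S2 cells, a line of embryonic origin with features of macrophage-like blood cells, in which RNA interference (RNAi) was directed against JIL-1, a chromatin-bound histone H3 kinase. Total RNA of 5 control and 5 JIL-1 RNAi samples was measured on single-colour Affymetrix arrays. Cells received 10 µg of dsRNA without serum, medium with serum followed after 1 hour, the cultures were split on day 3, and RNA was made from cells of day 7. The labels name 2 ways of extracting RNA without saying which sample had which, so whether extraction differed between the batches is not known. In batch A, 3 control samples received dsRNA against GST and 2 samples received dsRNA against the 5' part of JIL-1. In batch B, 2 control samples received dsRNA against EGFP and 3 samples received dsRNA against the 3' part of JIL-1. Every sample therefore received dsRNA that enters the siRNA branch, and cells without dsRNA are not analysed here. Values are log2 GCRMA signals, a change is the log2 difference between JIL-1 RNAi and control from a limma fit with terms for RNAi group and batch, with its standard error (SE), and adjusted p-values come from the same fit, corrected by the Benjamini-Hochberg method over all 6721 rows. The series calls the samples biological replicates, and precision is limited by how many arrays there are.

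The targeted transcript was lower in all JIL-1 RNAi samples than in the controls of their batch, and over both batches JIL-1 fell by 1.56 (SE 0.077, adjusted p = 5.32e-07). Its means were 5.80 in the controls and 4.35 after JIL-1 RNAi in batch A, and 7.44 and 5.76 in batch B. Between the controls, JIL-1 was 3.11-fold higher in batch B (log2 1.64, limma adjusted p = 2.57e-06). JIL-1 RNAi samples of batch B were not called different from the batch A controls (-0.037, limma adjusted p = 0.724). All 10 blood cell markers on the list were above the filter, among them srp, Hml, He and NimC1. Of 8 markers of other cell types with a probe set, 7 had a mean under 4: repo (glia), vas (germ line), tj (gonad soma), Fbp1 and Lsp2 (fat body) and Act88F (muscle) did not exceed 2.29 in any sample, near the lower end of the scale, and bam (germ line) reached 5.43 in at least 1 sample. The neuronal gene elav was above the filter, between 4.60 and 5.45 in batch A and between 7.34 and 8.12 in batch B. Of the 10 blood cell markers 5 fell and 1 rose, against 14.9% and 20.8% of all tested rows, and their summed log2 values ran from 114 to 122 in the controls and from 109 to 118 after JIL-1 RNAi. These ranges pool both batches, and between the controls 6 markers were lower and 3 higher in batch B. The part of the markers in the results below was not tested, and in such bulk samples fewer cells of a type and less RNA per cell cannot be told apart.

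None of the 5 machinery genes passed limma's threshold after JIL-1 RNAi, although 35.7% of all tested rows did (20.8% rose and 14.9% fell). At an unadjusted p under 0.05 there were 2 of 5, r2d2 and pasha, both with higher values after JIL-1 RNAi, and 45.9% of all tested rows. The changes of the 5 genes ran from -0.12 to 0.36 with a median of 0.15, against a median of 0.047 over all tested rows. Within single batches limma called none either, where 28.2% of all tested rows were called in batch A and 17.6% in batch B. An unadjusted p under 0.05 was reached by 2 members in batch A, against 40.6% of all tested rows, and by 1 in batch B, against 31.3%. No member's change was called different between the batches, a call that limma made for 1.38% of all tested rows. At an unadjusted p under 0.05 there were 0 of 5 members, against 14.8% of all tested rows. With some other settings 1 member passed, and with a threshold of 0.1 r2d2 and pasha both did. At that threshold at least 2397 and at most 2988 of the 6721 tested rows passed. The residual standard deviations (SD) of the members ran from 0.13 to 0.24, with drosha (0.20) and r2d2 (0.24) the widest. The median over all tested rows was 0.12.

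**Figure D1:**
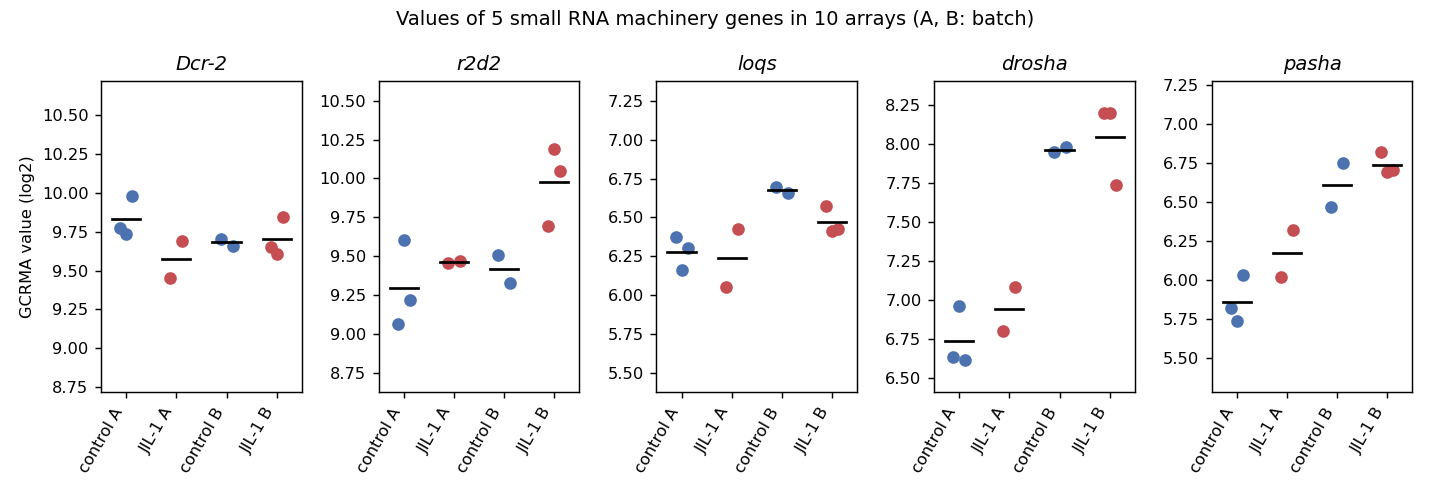
Log2 GCRMA values (y axis, each panel spanning the same number of log2 units) of Dcr-2, r2d2, loqs, drosha and pasha in each of the 10 arrays, by RNAi group and batch (x axis). Points are samples and bars are group means. Values of r2d2 were highest in the 3 JIL-1 RNAi samples of batch B (9.70 to 10.19), and drosha and pasha had higher values in every sample of batch B than in any of batch A.

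Dcr-2 encodes the Dicer that cuts long dsRNA into siRNAs. In batch A its values were 9.77, 9.74 and 9.98 in the controls and 9.45 and 9.69 after JIL-1 RNAi. In batch B they were 9.71 and 9.66 in the controls and 9.65, 9.60 and 9.84 after JIL-1 RNAi. The groups did not overlap in batch A, where JIL-1 RNAi was lower, and overlapped in batch B; such a lack of overlap held for 51.9% of all tested rows in batch A and for 54.7% in batch B. The change over both batches was -0.12 (SE 0.086, 95% interval -0.31 to 0.069, adjusted p = 0.293). Batch A alone gave -0.26 (adjusted p = 0.104) and batch B alone 0.017 (adjusted p = 0.939), and the difference between these changes was 0.28 (SE 0.15, adjusted p = 0.438). As a ratio to the control level, the interval over both batches, not adjusted for the number of rows, runs from 0.806 to 1.05. The log2 intervals within single batches reached further, from -0.50 to -0.016 in batch A and from -0.23 to 0.26 in batch B.

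The dsRNA-binding protein R2D2 is the partner of Dicer-2 that helps load siRNAs into Argonaute 2. In batch A the r2d2 controls lay at 9.07, 9.61 and 9.22 and the JIL-1 RNAi samples at 9.45 and 9.47, inside the range of the controls. In batch B the controls lay at 9.51 and 9.33 and the JIL-1 RNAi samples at 9.70, 10.19 and 10.05, all above the controls. Such a separation in batch B, in either direction, held for 54.7% of all tested rows. The change over both batches was 0.36 (SE 0.13, 95% interval 0.068 to 0.66, adjusted p = 0.0558). In batch A it was 0.16 (adjusted p = 0.514) and in batch B 0.56 (adjusted p = 0.0535), which passed the threshold in 7 of 19 alternatives, with array weights at 0.63 (adjusted p = 0.00574). The difference between these changes was 0.39 (SE 0.24, adjusted p = 0.492). The call of r2d2 turned on single samples: the change was 0.45 (adjusted p = 0.0105) without control replicate 2, the highest r2d2 control, and 0.41 (adjusted p = 0.0488) without JIL-1 RNAi replicate 3, whereas over the samples left out in turn the adjusted p reached 0.165.

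Loquacious, the product of loqs, is a dsRNA-binding protein whose isoforms serve Dicer-1 in cutting miRNA precursors or Dicer-2 in cutting dsRNA. The loqs probe set carries a suffix for probe sets that match several transcripts of a gene, and isoforms were not told apart here. In batch A its values were 6.37, 6.16 and 6.30 in the controls and 6.05 and 6.43 after JIL-1 RNAi, which overlap. In batch B they were 6.70 and 6.65 in the controls and 6.58, 6.42 and 6.42 after JIL-1 RNAi, all lower than the controls. A lack of overlap in batch B, in either direction, held for 54.7% of all tested rows. The change over both batches was -0.12 (SE 0.082, 95% interval -0.30 to 0.061, adjusted p = 0.272), with -0.038 in batch A (adjusted p = 0.834) and -0.20 in batch B (adjusted p = 0.256), or -0.23 (adjusted p = 0.0485) with array weights. Without JIL-1 RNAi replicate 2, the higher of the pair in batch A, the change was -0.21 (adjusted p = 0.0419).

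The Microprocessor consists of the RNase III enzyme Drosha and its dsRNA-binding partner Pasha. For drosha the batch A values were 6.63, 6.96 and 6.61 in the controls and 6.80 and 7.09 after JIL-1 RNAi, and the batch B values were 7.95 and 7.98 in the controls and 8.20, 8.20 and 7.74 after JIL-1 RNAi. The groups overlapped in both batches, and the change was 0.15 (SE 0.11, 95% interval -0.10 to 0.39, adjusted p = 0.337). For pasha the batch A values were 5.82, 5.73 and 6.03 in the controls and 6.02 and 6.32 after JIL-1 RNAi, and the batch B values were 6.47 and 6.75 in the controls and 6.82, 6.69 and 6.70 after JIL-1 RNAi. The groups of pasha also overlapped in both batches. Its change was 0.22 (SE 0.090, 95% interval 0.020 to 0.42, adjusted p = 0.0814), with 0.31 in batch A (adjusted p = 0.0957, or 0.40 and adjusted p = 0.0458 without control replicate 3) and 0.13 in batch B (adjusted p = 0.527). Without control replicate 5, the higher control of batch B, the change of pasha was 0.30 (adjusted p = 0.0357).

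**Figure D2:**
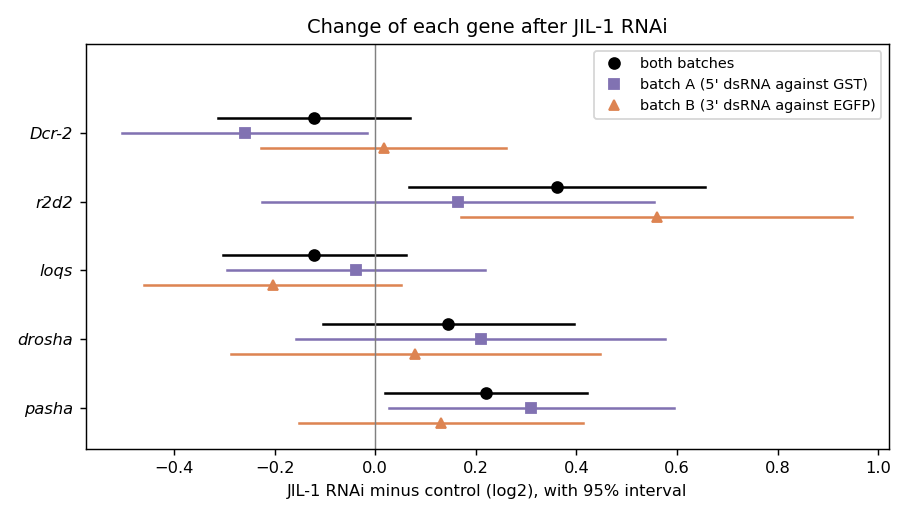
Change of each gene after JIL-1 RNAi (x axis, log2 difference to control; lines are 95% intervals from limma, not adjusted for the number of rows) over both batches and within each batch. The changes run from -0.12 for Dcr-2 to 0.36 for r2d2 over both batches, and every pair of intervals within a gene overlaps between the batches.

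Both Microprocessor genes differed between the batches, in the controls as well as after JIL-1 RNAi. Between the control samples, drosha was 2.35-fold higher in batch B (EGFP dsRNA) than in batch A (GST dsRNA), with means of 7.97 ± 0.025 (SD, n = 2) and 6.73 ± 0.20 (SD, n = 3), a log2 difference of 1.23 (SE 0.16, limma adjusted p = 0.000179). The controls of pasha differed by 0.75 (SE 0.13, limma adjusted p = 0.000726), a 1.68-fold higher level in batch B. The controls of loqs differed by 0.40 (SE 0.11, adjusted p = 0.0131), a call that was lost without control replicate 4 (adjusted p = 0.0732) or replicate 5 (adjusted p = 0.0518), with no filter (adjusted p = 0.0698), after quantile normalization (0.0082, adjusted p = 0.954) and with arrays set to a common median (0.24, adjusted p = 0.0855). In all, 3 of 5 members were higher in the batch B controls and none was lower, where 37.7% of all tested rows were higher and 24.7% lower. Both Microprocessor genes had no overlap between the batches over all 10 samples, as had 48.1% of all tested rows. Dcr-2 differed by -0.15 (adjusted p = 0.256) and r2d2 by 0.12 (adjusted p = 0.561).

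The same comparison in the JIL-1 RNAi samples gave 1.102 for drosha (SE 0.16, limma adjusted p = 0.000365), 0.57 for pasha (SE 0.13, adjusted p = 0.00363), 0.52 for r2d2 (SE 0.17, adjusted p = 0.0273) and 0.23 for loqs (adjusted p = 0.108). These samples were also higher in batch B for 32.3% of all tested rows. The batches differ in the dsRNA that each group received, so batch and dsRNA sequence cannot be told apart. They also differed in signals of RNA quality: the 3' minus 5' signal of the array's actin control probe sets lay between 0.54 and 0.66 on the batch A arrays and between 1.54 and 2.01 on those of batch B. For GAPDH it lay between 0.38 and 0.74 on the batch A arrays and between 1.23 and 1.54 on those of batch B. Within batch B the actin signal was 1.84 to 2.01 in the controls and 1.54 to 1.72 after JIL-1 RNAi. Within batch A the GAPDH signal was 0.38 to 0.56 in the controls and 0.59 to 0.74 after JIL-1 RNAi. The RNAi groups overlapped for actin in batch A and for GAPDH in batch B. Blood cell markers differed as well: in the controls of batch B 6 of 10 were lower and 3 higher than in those of batch A, with a median difference of -0.63 and -4.67 for NimC1. The part of these signals and markers in the difference of drosha and pasha, or in any change after JIL-1 RNAi, was not tested. Over all tested rows the median difference between the controls was 0.10, and it was -0.054 with arrays set to a common median and -0.017 after quantile normalization. With these scalings the difference of drosha was 1.08 and 0.90, and that of pasha 0.59 and 0.39, past the threshold in each case.

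**Figure D3:**
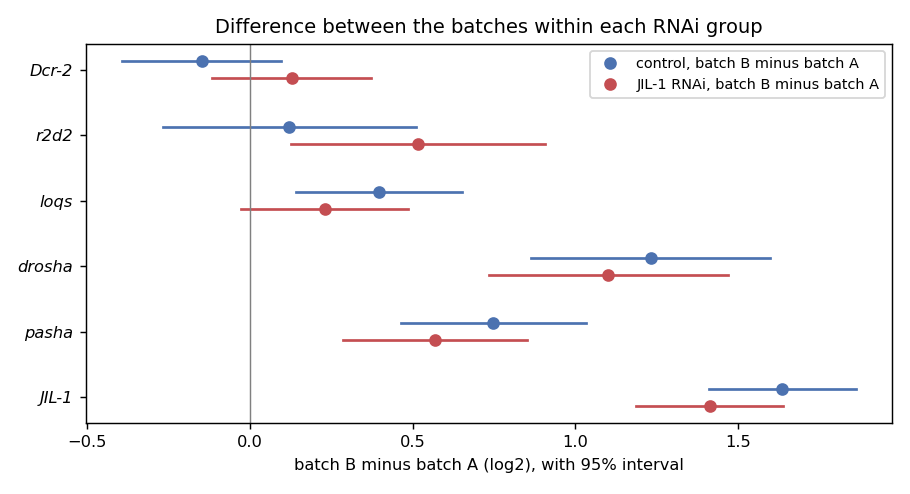
Difference between batch B and batch A (x axis, log2, with 95% intervals from limma) in the control samples and in the JIL-1 RNAi samples, for the machinery genes and for JIL-1. The points of drosha (1.23 and 1.102) and pasha (0.75 and 0.57) lie to the right of 0 in both groups, and those of Dcr-2 on both sides of it. For JIL-1 the points lie at 1.64 and 1.41.

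The 4 combinations of batch and group had the same order of means for drosha and pasha, and other orders for Dcr-2, r2d2 and loqs. For Dcr-2 the means ran from 9.57 (JIL-1 RNAi, batch A) to 9.83 (control, batch A), and no pair of the 4 passed the threshold. For r2d2 the order was control of batch A (9.30), control of batch B (9.42), JIL-1 RNAi of batch A (9.46) and JIL-1 RNAi of batch B (9.98), and among neighbours in this order the last pair differed. For loqs no neighbours in the order differed, and the controls of batch B (6.68) were above both groups of batch A (6.28 and 6.24). For drosha and pasha the order was control then JIL-1 RNAi of batch A, then control and JIL-1 RNAi of batch B. Within a batch their neighbours did not pass the threshold, and the step between the batches did, with 1.02 for drosha (adjusted p = 0.00105) and 0.44 for pasha (adjusted p = 0.0223).

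A list of siRNA genes, made of cofactors and of Vago, an output, held the largest change among the small RNA lists tested, that of Vago. This list, like the others, was chosen with earlier results of these data known, so the ranking is only a description. Of 9 listed genes, all tested, 2 rose and 2 fell, against 20.8% and 14.9% of all tested rows, and the median change was 0.014. Vago encodes a secreted antiviral factor whose induction by virus is known to need Dicer-2. Its values were 9.58, 9.52 and 9.68 in the batch A controls and 9.80 and 9.76 in the batch B controls, and after JIL-1 RNAi they were 7.69 and 6.44 in batch A and 8.002, 7.56 and 7.34 in batch B. Every JIL-1 RNAi sample was below every control, and Vago was 5.05-fold lower (log2 -2.34, SE 0.22, adjusted p = 3.47e-05).

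Hen1, the methyltransferase that protects the 3' end of siRNAs and PIWI-interacting RNAs (piRNAs), rose by 0.45 (SE 0.095, adjusted p = 0.00503), with values of 6.36 to 6.71 in the controls of both batches and 6.88 to 7.26 after JIL-1 RNAi. Translin, the product of trsn, is a subunit of the C3PO nuclease that helps activate siRNA-loaded Argonaute 2, and trsn rose by 0.32 (SE 0.060, adjusted p = 0.00279). The change of trsn was 0.42 in batch A (adjusted p = 0.00283) and 0.21 in batch B (adjusted p = 0.0722). Limma did not call these changes different (adjusted p = 0.392). The second fall was that of blanks, a dsRNA-binding protein gene named after its value was seen (-0.35, SE 0.10, adjusted p = 0.0217), with -0.62 in batch A (adjusted p = 0.000664) and -0.086 in batch B (adjusted p = 0.520), whose difference had an adjusted p of 0.0614. The call of blanks was lost without JIL-1 RNAi replicate 1 (adjusted p = 0.0623) or replicate 2 (adjusted p = 0.0666), with no filter (0.111), with the replicate block (0.112), without batch (0.160) and with array weights (0.0516), all adjusted p. Changes of Vago, Hen1 and trsn passed the threshold under every alternative run.

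Lists further along the miRNA branch are read against the same background, in which 20.8% of all tested rows rose and 14.9% fell. Of 7 tested genes of export, trimming and cap binding, 1 fell and none rose, with changes from -0.20 to 0.39 (median 0.037). It was Tailor, which adds uridines to miRNA precursors (-0.16, SE 0.054, adjusted p = 0.0398), and its call was lost in 8 of the 10 fits that left out 1 sample, with adjusted p up to 0.111. Of 17 tested effectors of miRNA silencing, the deadenylation and decapping factors, 1 fell and none rose, with changes from -0.32 to 0.24 (median 0.052). Rcd-1, a subunit of the CCR4-NOT deadenylase, was 1.25-fold lower (-0.32, SE 0.048, adjusted p = 0.000772), and gw, which encodes the GW182 partner of Argonaute 1, changed by 0.064 (adjusted p = 0.427). Of 3 tested chaperones that assist loading, Droj2, a J-domain co-chaperone, rose by 0.21 (SE 0.046, adjusted p = 0.0064, or 0.086 and adjusted p = 0.839 without batch), and Hsc70-4 changed by 0.0077 (adjusted p = 0.909). Between the controls, Rcd-1 (-0.81) and Droj2 (-0.60) were lower in batch B. The probe sets of Rcd-1 and Droj2 are of types dropped in the setting without cross-hybridising types, so neither had a value there. The listed genes Mhc, nbr, Hsp83, Hop, Not1, Rab7 and Arl1 are not analysed here.

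S2 cells take up dsRNA through scavenger receptors and endocytosis. Of 7 tested uptake genes 3 fell and none rose (median -0.078), against 14.9% and 20.8% of all tested rows. The scavenger receptor gene Sr-CI was 2.46-fold lower (-1.30, SE 0.071, adjusted p = 1.04e-06), eater, a phagocytic receptor gene, was 1.29-fold lower (-0.36, SE 0.080, adjusted p = 0.00657), and lt, which encodes a vacuolar sorting protein, was 1.33-fold lower (-0.42, SE 0.066, adjusted p = 0.000989). Limma called Sr-CI and lt in both batches. It called eater in batch B (-0.47, adjusted p = 0.0164) but not in batch A (-0.26, adjusted p = 0.102). Sr-CI and eater are also on the list of blood cell markers, and the clathrin heavy chain gene Chc changed by -0.038 (adjusted p = 0.553). All 3 Argonautes of the piRNA pathway, which silence transposons mainly in the germ line, fell, as did 14.9% of all tested rows: piwi by 0.26 (SE 0.065, adjusted p = 0.0113), aub by 1.19 (SE 0.12), and AGO3 to a level at least 1.81-fold lower when values under 4 were raised to 4. Limma called aub and AGO3 in both batches, and piwi in batch A (-0.35, adjusted p = 0.0148) but not in batch B (-0.18, adjusted p = 0.196). The AGO3 controls had means of 9.05 in batch A and 4.78 in batch B. Whether these changes differed from those of the machinery genes was not tested.

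**Figure D4:**
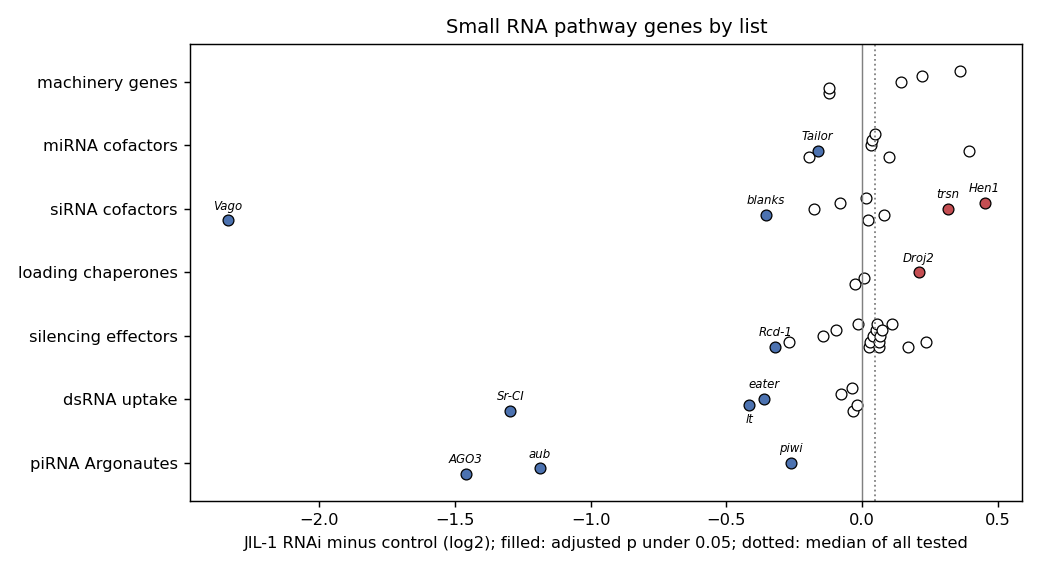
Change after JIL-1 RNAi (x axis, log2 difference to control) of the tested genes of 7 small RNA lists (y axis). Filled points passed an adjusted p of 0.05, and the dotted line is the median of all tested rows (0.047). AGO3 is drawn with its values as given, of which those after JIL-1 RNAi in batch B lie under 4. No machinery gene is filled, and Vago (-2.34) lies farthest from 0.

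Genes next to the members on the genome, chosen after the data were seen, were read from the Release 6 gene table. Of 10 neighbouring protein-coding genes 6 were tested, 1 rose and none fell, against 20.8% and 14.9% of all tested rows. Herp, beside r2d2, rose by 0.34 (SE 0.091, adjusted p = 0.0167). Cdc14, which overlaps r2d2, changed by -0.069 (adjusted p = 0.494). The gene spans of Dcr-2 and Rab4, and of pasha and kek6, overlap as well, and whether the probes of a member lie in the shared stretch was not examined.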

How the data were processed

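Per the submitters' processing notes, the authors used GCRMA, which corrects background by probe sequence and normalizes between arrays, to make the deposited log2 values. The version and the set of arrays normalized jointly are not stated in the labels. The scale was judged from the deposited log2 values, and on each array 50.5% to 51.8% of probe sets sat within 0.01 of the minimum, so dim genes carry little information.

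After 183 control probe sets were removed from 18952, each named gene was represented by its brightest probe set, and the 6721 rows with a mean above 4 entered the tests. Platform annotation gave the names, and 13544 of 13647 were updated by gene ID. Terms for group and batch entered a limma fit (limma 3.58.1, R 4.3.3), and a second fit of 4 means gave the changes in each batch and the differences between batches (two-sided, Benjamini-Hochberg, threshold 0.05). Both fits were tested on simulated data. Of 8 pairs of samples that share batch and group, none was identical (SD of their difference 0.155 to 0.264).

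Named genes were the members, JIL-1 and, from each list, up to 3 called genes in order of p, or the gene of lowest p where none was called. Others, such as blanks, Trax, Pxn, gw, Hsc70-4, Chc and the neighbours, were named after their values were seen. Genes most like a member were to be named for members past the threshold, and there were none. The members and lists were chosen with earlier results of these data known. Replicate numbers did not pair the samples.

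The alternatives changed the model (batch left out, a block for the replicate number, or batch as a random effect), the filter (none, or a mean above 6), the scaling (common median, quantile), the variance model (trend and robust fit, or weights per array), the probe sets (all as rows, or without cross-hybridising types), the floor (values under 4 raised to 4), the samples (each left out in turn) and the threshold (0.1). Probe sets whose suffix marks several transcripts of a gene were dropped together with the cross-hybridising types.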

Additional observations from a re-analysis of the deposited data

Results flagged for a closer look

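Among the listed genes, changes that differed between the batches were found for aub, Trax and Pxn, by limma's test of the difference itself, where 1.38% of all tested rows differed. The change of aub in batch B minus that in batch A was -0.70 (adjusted p = 0.0224), from -0.84 in batch A and -1.54 in batch B. The change of Trax, the partner of translin in C3PO, named after its value was seen, differed by -0.58 (adjusted p = 0.0319), from 0.21 in batch A to -0.37 in batch B. The blood cell marker Pxn was also named after its value was seen. Its changes were -0.042 in batch A and 0.88 in batch B, a difference of 0.93 (adjusted p = 0.00177). The difference of Pxn was not refitted with other settings. The call of aub was lost in 6 of the 10 fits that left out 1 sample (control replicate 4 or 5, JIL-1 RNAi replicate 1, 2, 3 or 5), where the adjusted p ran from 0.0218 to 0.108, and with no filter (adjusted p = 0.0722). The call of Trax was lost in 9 of these 10 fits, all but the one without control replicate 3, where the adjusted p ran from 0.0304 to 0.155, and with no filter (adjusted p = 0.0614).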

How the results depend on the processing

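The count of machinery genes past the threshold was 0. It was 1 with batch as a random block, with a mean above 6, with a variance trend and robust fit and with array weights (r2d2 in each), 1 after quantile normalization (pasha, 0.25, adjusted p = 0.0364), 0 to 1 when a sample was left out, and 2 with an adjusted p under 0.1. All 109 recomputed changes of the 5 genes over both batches kept their direction. The number of all rows past the threshold was 2397, with 501 in the fit without batch, 1203 with the replicate block and 1452 with no filter, and 1761 to 2262 when a sample was left out. With an adjusted p under 0.1 that number was at most 2988. Correlations of the deviations of same-numbered samples ran from -0.48 to 0.30, so the numbers did not pair the samples, and no member passed with the replicate block. Signs of small differences turned: that of r2d2 between the controls (-0.033 with a common median, -0.018 after quantile normalization), Dcr-2 in batch B with array weights (-0.025), and elav without batch (0.32). When a sample was left out, Dcr-2 in batch B ran from -0.055 to 0.065, pasha in batch B from -0.0099 to 0.27, loqs in batch A from -0.22 to 0.15, the difference between batches from -0.35 to 0.020 for loqs and from -0.27 to 0.025 for drosha, and the change of Trax from -0.17 to 0.016. Calls were lost without batch for Droj2 (0.086, adjusted p = 0.839), JIL-1 (adjusted p = 0.153), AGO3 (0.371), NimC1 (0.243), Rcd-1 (0.309), eater (0.195), piwi (0.0900) and Tailor (0.159), with the replicate block for Droj2 (0.0582), piwi (0.0661) and Tailor (0.184), and with no filter for Tailor (0.0706). With arrays at a common median Dcr-2 was lower in the batch B controls (-0.30, adjusted p = 0.0286). The cause of these shifts was not tested. The setting without cross-hybridising types also dropped probe sets that match several transcripts of a gene, so loqs had no value there. Rcd-1 and Droj2 had none there either. Fits that left out a sample of a pair assume that the lone sample varies like the others.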
